A study of Mus musculus with 384 samples.

Results

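CA1 is the field of the hippocampus that sends its output to cortex, amygdala and hypothalamus. Its dorsal end (dCA1) is known for spatial memory, whereas its ventral end (vCA1) takes part in emotional behavior and in the restraint of the hormonal stress response. Cells of CA1 carry the glucocorticoid receptor (GR), a transcription factor that is switched on by corticosterone and encoded by *Nr3c1*. The libraries described here are the 32 of dorsal and the 32 of ventral CA1, chosen by the region in their labels, among the 380 libraries with values that cover 12 brain regions. Every mouse gave 1 library of each end, so that dorsal and ventral could be compared within 32 mice.

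The mice were male Balb/c, per the labels, which place them in 4 groups of 8 mice, Co naive, Co inject, MS naive and MS inject. MS or Co is a status code and inject or naive an injection code in the labels. The study reared mice with limited nesting and bedding material or with early handling, then kept them as adults with an ovariectomized female or exposed them to chronic social defeat, and left out mice reared without manipulation. Which label group is which of these conditions is not given in the sources used here, so the groups are called by their labels only. The labels state postnatal day 9 as the age of all mice, whereas the methods place tissue collection in adulthood. The labels also name a region Pit, where the methods list the nucleus accumbens. The MS mice are numbered 79 to 109 and the Co mice 227 to 267, and what these numbers follow is not given. RNA came from frozen micropunches, in which a change in RNA per cell cannot be told apart from a change in the number of cells of a type.

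The panel held 69 assays. The study chose mouse orthologues of human genes near risk variants for major depressive disorder or schizophrenia whose transcripts respond to GR activation, and it names fewer of them than there are assays here. Values are normalized reads, namely the reads of an assay divided by the size factor of the library. Each assay amplifies 1 short piece of a transcript with its own primers, so levels were compared between libraries and not between genes. Recovered reads ran from 50448 to 226629 per dCA1 library with a median of 111204, and from 12898 to 168414 per vCA1 library with a median of 116386. The vCA1 library of mouse 99 (MS inject) had the 12898 reads, the next lowest vCA1 library had 49360, and 20 of the 69 assays of mouse 99 in vCA1 were at 0. In that library 3 reads, the limit that a count of 0 allows, equal 27.8 normalized reads, against a median of 3.27 over the vCA1 libraries. Such limits cover counting error only, since amplified reads are not independent molecules.

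The panel cannot check the anatomical label. None of 36 marker genes of CA1, CA3 and dentate neurons, hypothalamic neurons, interneurons, glia, choroid plexus and vessels that were looked for is among the assays (0 of 36). By the correlation of all 69 assays with the mean of each of the 12 regions, the library itself left out, 5 of 32 dCA1 libraries were nearest to the dCA1 mean, 6 to the vCA1 mean and 11 to that of the hypothalamic paraventricular nucleus (PVN). Of the 32 vCA1 libraries 13 were nearest to the vCA1 mean, 3 to the dCA1 mean and 7 to that of the PVN.

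Libraries of both regions fell into separate ranges that cut across the region labels. *Ociad2*, a gene for a mitochondrial and endosomal membrane protein (RefSeq, GRCm38.p6, chromosome 5, 73322198 to 73338947), was between 661 and 1095 normalized reads in 7 dCA1 libraries and between 1734 and 3555 in the other 25. In vCA1 it was between 713 and 1500 in 16 libraries and between 2278 and 3388 in the other 16. No dCA1 library lay in the interval between the ranges, which is 0.66 wide on the log2 scale, and no vCA1 library in one that is 0.60 wide. These were the widest such intervals among the assays with a median of at least 100 in dCA1 and vCA1, with at least 4 libraries on each side. The cut was set in each region by its widest interval, and over both regions the ranges come as near as 1500 and 1734. *Tmem176a*, a membrane channel protein of the endolysosomal system known from dendritic cells (chromosome 6, 48841483 to 48845364), was higher in all 23 libraries of the lower *Ociad2* range than in any other. *Tmem176a* was between 336 and 764 in these 23 libraries and between 30.8 and 331 in the rest, as the plot of both genes by library shows. Its cut was set from these ranges, at the highest value of the upper-range libraries, and by it 64 of 64 libraries lay on the opposite side. The values on the sides of this cut nearly touch.

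**Figure D1:**
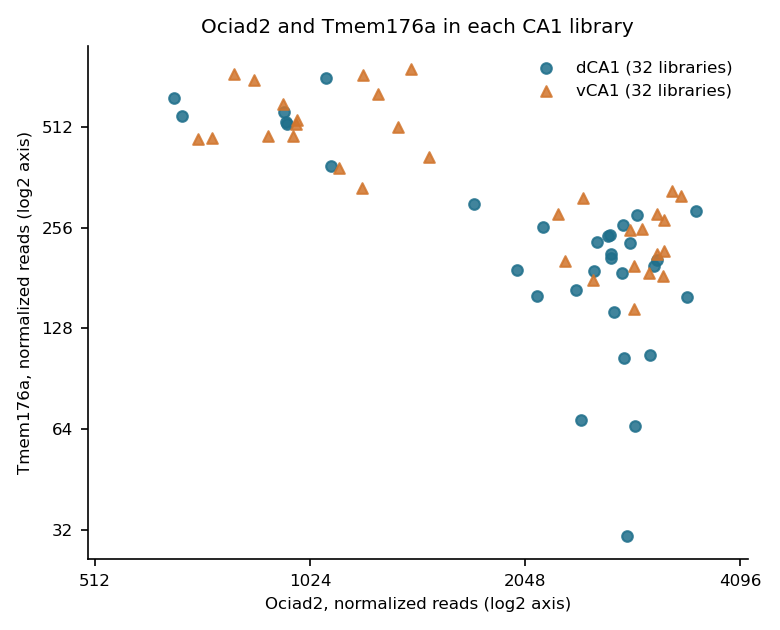
Normalized reads of Ociad2 (x axis) and Tmem176a (y axis), both on log2 axes, in 32 dCA1 libraries (circles) and 32 vCA1 libraries (triangles). The 23 libraries of the lower Ociad2 range (661 to 1500) have Tmem176a at 336 or above, and both regions have libraries on each side.

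Of the other assays, *Cd47*, *Nedd4l* and *Fth1* went with these ranges, *Cd47* without overlap in dCA1 and *Nedd4l* without overlap in vCA1. *Cd47* and *Nedd4l* were picked after their values had been seen. The genes are examples, and the share of the panel that separates by range is not given here. Values of *Cd47* are given for dCA1 only. *Cd47*, the signal that keeps phagocytes from engulfing a cell, was between 2610 and 3351 in the 7 dCA1 libraries of the lower *Ociad2* range and between 4043 and 7747 in the other 25, without overlap. *Nedd4l*, a ubiquitin ligase of membrane channels, was between 304 and 605 in the lower-range vCA1 libraries and between 642 and 1036 in the others. In dCA1 it was between 286 and 544 in the lower-range libraries and between 507 and 1368 in the others. *Fth1* overlapped, with a median of 28106 in the 7 lower-range dCA1 libraries against 64551 in the others, and of 24540 against 46461 in vCA1. Within mice the ranges were not shared: 16 mice had only the ventral library in the lower range, 7 only the dorsal one, 9 neither and 0 both. The label groups were close to even, since 4 of 8 vCA1 libraries were in the lower range in each group, and 2 of 8 dCA1 libraries in Co naive, MS naive and MS inject and 1 of 8 in Co inject. The lower range was also present in the PVN, where 7 of 30 libraries were at or under 1492 and the rest at or above 2054. Whether the region labels of some libraries were exchanged was not tested, and where they were, a dorsal minus ventral value would have the wrong sign or compare other tissue. Because more ventral than dorsal libraries lie in the lower range, the leading dorsal to ventral differences are given also with the range of the libraries as a covariate, which was added after the values had been seen.

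The first comparison asks which genes of the panel differ between the dorsal and the ventral end. On the log2(normalized reads + 1) scale, 0 of 69 assays (0%) passed an adjusted p of 0.1 over all 32 mice (limma on the within-mouse differences), and the smallest adjusted p was 0.137. At an unadjusted p under 0.05 there were 10 assays (14.5%), of which *Fth1*, *Nr3c1* and *Pitpnm2* had the higher dorsal mean and *Tmem176a*, *Mob3a*, *Stambpl1*, *Ctnnb1*, *Rfx5*, *AW209491* and *Slc7a7* the higher ventral mean. For 50 assays the 95% confidence interval of the difference lay within 1 on the log2 scale in either direction, and for 32 within 0.5. Differences were above 0 for 28 assays and below 0 for 41. With all libraries rescaled to the same total, the median difference moved from -0.05 to -0.21, 53 assays were below 0, and 16 assays passed, 2 with a higher dorsal and 14 with a higher ventral mean. In a single library the assay with the most reads held 18.5 to 51.1% of the reads in dCA1 and 18.6 to 41.8% in vCA1. Rescaled values of the other assays therefore depend on that assay. Leaving out 1 mouse gave 2 to 7 assays for 8 of the 32 mice (numbers 87, 93, 103, 107, 227, 241, 245 and 267), *Fth1* and *Nr3c1* among them in all 8 fits, and 0 for the other 24. Of these 8 mice 6 (all but 107 and 245) are among the 7 with only the dorsal library in the lower *Ociad2* range. Leaving 1 of them out makes the ends less even in that range, and whether this bears on the calls was not tested. Without the mouse as a replicate block *Fth1*, *Nr3c1* and *Tmem176a* passed (3 assays), and with the ratio of the reads of the libraries of a mouse as a covariate *Fth1*, *Nr3c1* and *Pitpnm2* did (3 assays).

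**Figure D2:**
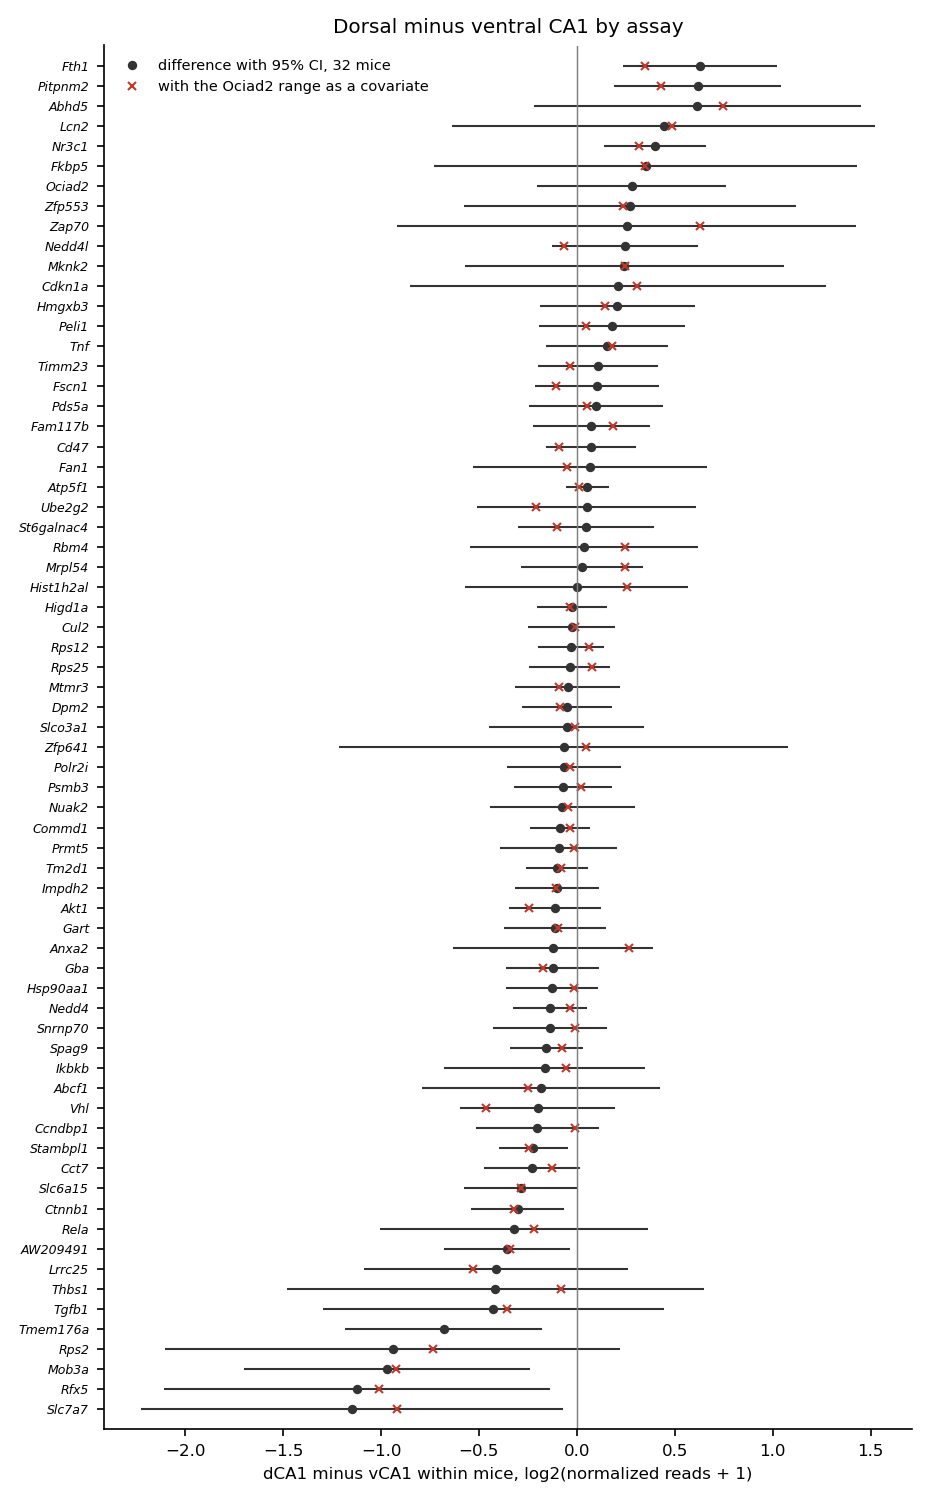
Mean within-mouse difference of dCA1 minus vCA1 in log2(normalized reads + 1) for 68 of the 69 assays, with its 95% confidence interval over 32 mice (points and lines) and with the Ociad2 range as a covariate (crosses, left out for Ociad2 and Tmem176a). Fth1 has the highest difference (0.63) and Slc7a7 the lowest (-1.15), and no assay passed the adjusted threshold.

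*Fth1* encodes the heavy chain of ferritin, which oxidizes and stores iron (chromosome 19, 9980600 to 9985111). Its lowest, median and highest normalized reads were 15346, 49001 and 104820 in dCA1 and 13656, 29789 and 72150 in vCA1. The ranges of the regions overlap widely, and the dorsal library was the higher in 24 of 32 mice. The mean difference was 0.63 on the log2 scale (SE 0.192, adjusted p = 0.137). It was 0.35 (adjusted p = 0.210) with the *Ociad2* range as a covariate. In the 9 mice with neither library in the lower range, the median difference was 0.20 and the dorsal library was the higher in 7.

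*Nr3c1*, the GR gene itself, had 173, 339 and 747 normalized reads in dCA1 as lowest, median and highest and 92.7, 268 and 521 in vCA1. The dorsal library was the higher in 21 of 32 mice, with a mean difference of 0.40 (SE 0.128, adjusted p = 0.137). With the range as a covariate it was 0.32 (adjusted p = 0.231), and the median difference in the 9 mice was 0.41, with 6 higher in dCA1. The lowest ventral value of *Nr3c1* came from the library of mouse 99, at 10 reads, and without it the adjusted p was 0.130. *Fkbp5*, a GR target and a brake on GR signaling, was between 0 and 157 in dCA1 and between 0 and 206 in vCA1, with a difference of 0.35 whose 95% interval ran from -0.73 to 1.43.

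*Pitpnm2*, a phosphatidylinositol transfer protein, had 117, 338 and 790 normalized reads in dCA1 and 9.27, 237 and 477 in vCA1. The dorsal library was the higher in 22 of 32 mice and the mean difference was 0.62 (SE 0.209, adjusted p = 0.137), or 0.43 (adjusted p = 0.298) with the range as a covariate. The lowest ventral value was 1 read in the library of mouse 99. In the 9 mice the median difference was 0.16, with 5 higher in dCA1 and 4 in vCA1. For these 3 genes most mice had the higher value at the dorsal end, and 8 to 11 mice of 32 had the opposite order.

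**Figure D3:**
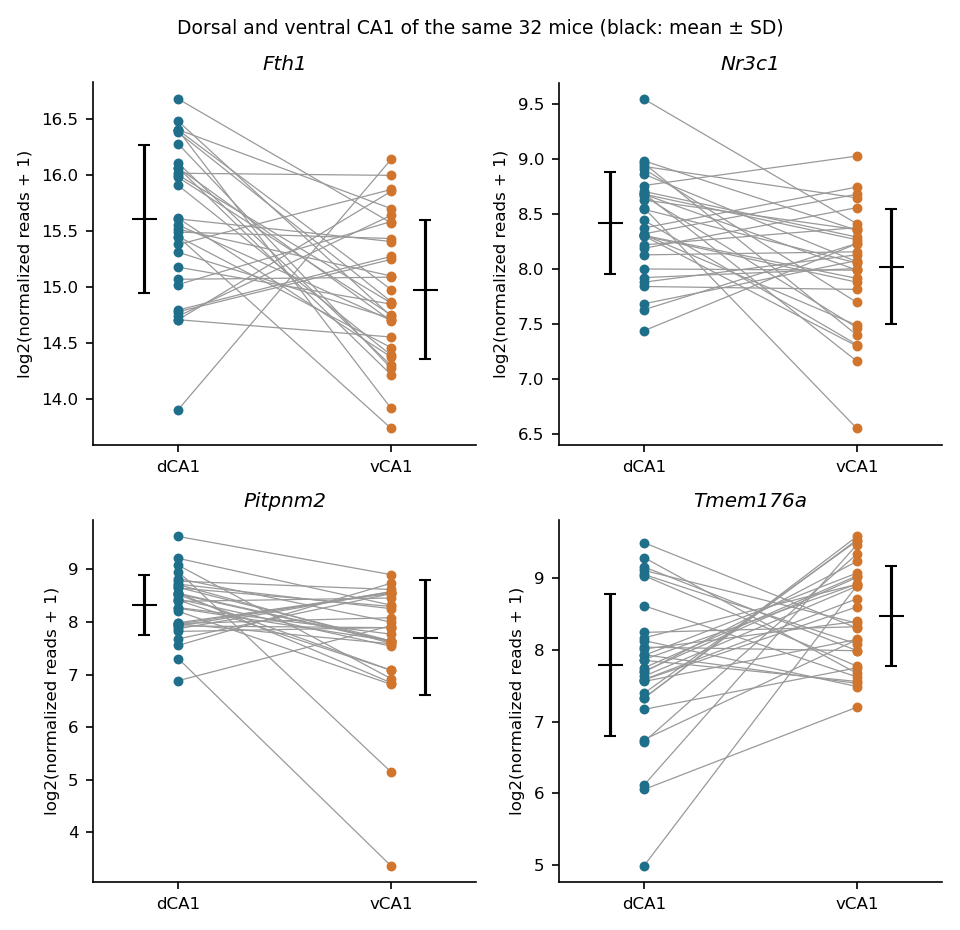
Fth1, Nr3c1, Pitpnm2 and Tmem176a in log2(normalized reads + 1) in dCA1 and vCA1, with a grey line for each of 32 mice and the mean and SD of each region in black. Dorsal values are the higher in 24, 21, 22 and 11 of the 32 mice.

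*Tmem176a* had 30.8, 222 and 719 normalized reads in dCA1 and 146, 333 and 764 in vCA1, and the ventral library was the higher in 21 of 32 mice. The mean difference was -0.68 (SE 0.246, adjusted p = 0.147). As *Tmem176a* takes the opposite side of the *Ociad2* range in every CA1 library, the range as a covariate, or a choice of mice by it, uses the gene itself. With that limit, the difference was -0.29 (adjusted p = 0.348) with the covariate and had a median of -0.08 in the 9 mice with both libraries in the upper range, of which 4 were higher in dCA1 and 5 in vCA1. *Ctnnb1*, the beta-catenin of cell junctions and Wnt signaling, had a median of 3765 in dCA1 and 4200 in vCA1 and a mean difference of -0.30 (SE 0.117, adjusted p = 0.147). *Stambpl1*, an enzyme that removes ubiquitin chains at endosomes, had nearly the same median, 976 in dCA1 and 978 in vCA1, and a mean difference of -0.22 (SE 0.0855, adjusted p = 0.147). With the range as a covariate the differences were -0.32 (adjusted p = 0.210) for *Ctnnb1* and -0.24 (adjusted p = 0.210) for *Stambpl1*. In the 9 mice the median difference was -0.26 for *Ctnnb1* and -0.04 for *Stambpl1*, which was higher in dCA1 in 4 of them and in vCA1 in 5.

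The other 4 assays of this set were low or sparse. *AW209491*, the mouse orthologue of a human open reading frame, had a median of 166 in dCA1 and 211 in vCA1 and was the higher in vCA1 in 21 of 32 mice. *Mob3a*, a member of the MOB family of kinase adaptors, was at 0 in 8 of 32 dCA1 and 6 of 32 vCA1 libraries, with medians of 14.8 and 31.3. *Slc7a7*, a transporter of basic amino acids, was at 0 in 12 and 6 libraries, with medians of 9.10 and 28.5. *Rfx5*, which drives the promoters of MHC class II genes, was at 0 in 9 and 3 libraries, with medians of 29.7 and 40.1. For *Rfx5* the dorsal library was the higher in 15 mice and the ventral one in 16. The adjusted p of these 4 genes lay between 0.147 and 0.257, and with the range as a covariate between 0.234 and 0.445.

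The lists of genes with related roles, none of whose members passed, were set beside the median difference of -0.05 over all 69 assays, of which 41 were below 0. All 4 genes of cytosolic translation were below 0 with a median of -0.11, from *Rps2* at -0.94 to *Rps12* at -0.03, and both chaperones were below 0, *Cct7* at -0.23 and *Hsp90aa1* at -0.13. With the range as a covariate the medians were -0.09 for translation and -0.07 for chaperones. In the 9 mice with both libraries in the upper range, *Rps12* was the higher in dCA1 in 8 and *Rps25* in 5. There *Rps2* was the higher in vCA1 in 7 and *Abcf1* in 5. All 3 membrane transporters were below 0 with a median of -0.29, *Slc6a15*, a carrier of neutral amino acids in neurons, being at -0.29. Of 6 signaling genes 5 were below 0 with a median of -0.13, of 9 immune and matrix genes 5 with a median of -0.12, and of 3 genes of RNA synthesis and splicing 2 with a median of -0.07, led by *Snrnp70* at -0.14. With the range as a covariate these medians were -0.16, -0.08 and -0.01. Of 5 mitochondrial genes 4 were above 0 with a median of 0.05, *Timm23* of the inner membrane import channel at 0.11 and *Ociad2*, whose level sets the ranges, at 0.28. The median of this list was -0.03 with the range as a covariate, and with the totals rescaled 4 of these 5 were below 0, as were 53 of all 69 assays. Of 4 chromatin genes 3 were above 0 with a median of 0.05, whereas 3 were below 0 with the totals rescaled. Of 7 ubiquitin and proteasome genes 3 were above 0, with a median of -0.07. The lipid, glycan and lysosome list was split 3 to 3, *Abhd5*, the coactivator of triglyceride lipase, being at 0.62 with an interval from -0.22 to 1.45. Of the 2 cell cycle inhibitors 1 was above 0 (*Cdkn1a*, 0.21).

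The next comparison takes dorsal minus ventral within each label group of 8 mice. In MS naive mice 1 of 69 assays (1.45%) passed, with 3 (4.35%) at an unadjusted p under 0.05. It was *Rfx5* (chromosome 3, 94950689 to 94961561). Its normalized reads in dCA1 were 0 in 5 mice and 10.4, 16.1 and 70.9 in the others, and in vCA1 of the same mice they were between 33.4 and 99.8 with a median of 51.4. The ventral library was the higher in 8 of 8 mice, and 7 of the 8 dorsal values lay under all 8 ventral ones. The mean difference was -4.14 on the log2(normalized reads + 1) scale (SE 0.965, adjusted p = 0.0117). As 5 dorsal values are 0, its size rests on the pseudocount, and it was -6.22 with a pseudocount of 0.1 and -2.08 with 10. It passed in all 32 fits that left out 1 mouse, with adjusted p between 0.0043 and 0.0510, and with the range as a covariate (-4.04, adjusted p = 0.0219). Without mouse 107, *AW209491* passed as well in MS naive mice.

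In the other label groups the ventral library of *Rfx5* was the higher in 4 of 8 Co naive, 1 of 8 Co inject and 3 of 8 MS inject mice. Median dorsal values were 43.9, 43.4 and 41.5 there, and median ventral values 56.3, 20.5 and 34.0. The test of the difference between inject and naive mice gave 2.94 (SE 0.965, adjusted p = 0.330), so that a difference between the groups was not shown. It passed in 2 of 32 fits that left out 1 mouse, those without mouse 81 or mouse 237.

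In Co inject mice 1 of 69 assays (1.45%) passed, with 5 (7.25%) at an unadjusted p under 0.05. It was *Mob3a* (chromosome 10, 80685253 to 80701820). Its dorsal values were 0 in 3 of 8 mice, with a median of 7.14 and a highest value of 75.5, and its ventral values ran from 20.3 to 72.1 with a median of 39.2. The ventral library was the higher in 7 of 8 mice, and the highest of all 16 values was a dorsal one. The mean difference was -2.54 (SE 0.716, adjusted p = 0.0897). Because of the dorsal values at 0 its size rests on the pseudocount, being -3.81 (adjusted p = 0.149) with 0.1 and -1.21 (adjusted p = 0.0940) with 10. It passed in 11 of 32 fits that left out 1 mouse, and without mouse 249 or mouse 267 *Lrrc25* passed as well. *Mob3a* did not pass without the vCA1 library of mouse 99 (adjusted p = 0.102), which is not in this group but enters the shared estimate of spread, nor with the range as a covariate (adjusted p = 0.115) or without pairing the mice (adjusted p = 0.313). The difference of *Mob3a* between MS and Co mice (1.80, SE 0.716, adjusted p = 0.428) and that between inject and naive mice (-1.79, SE 0.716, adjusted p = 0.422) did not pass.

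**Figure D4:**
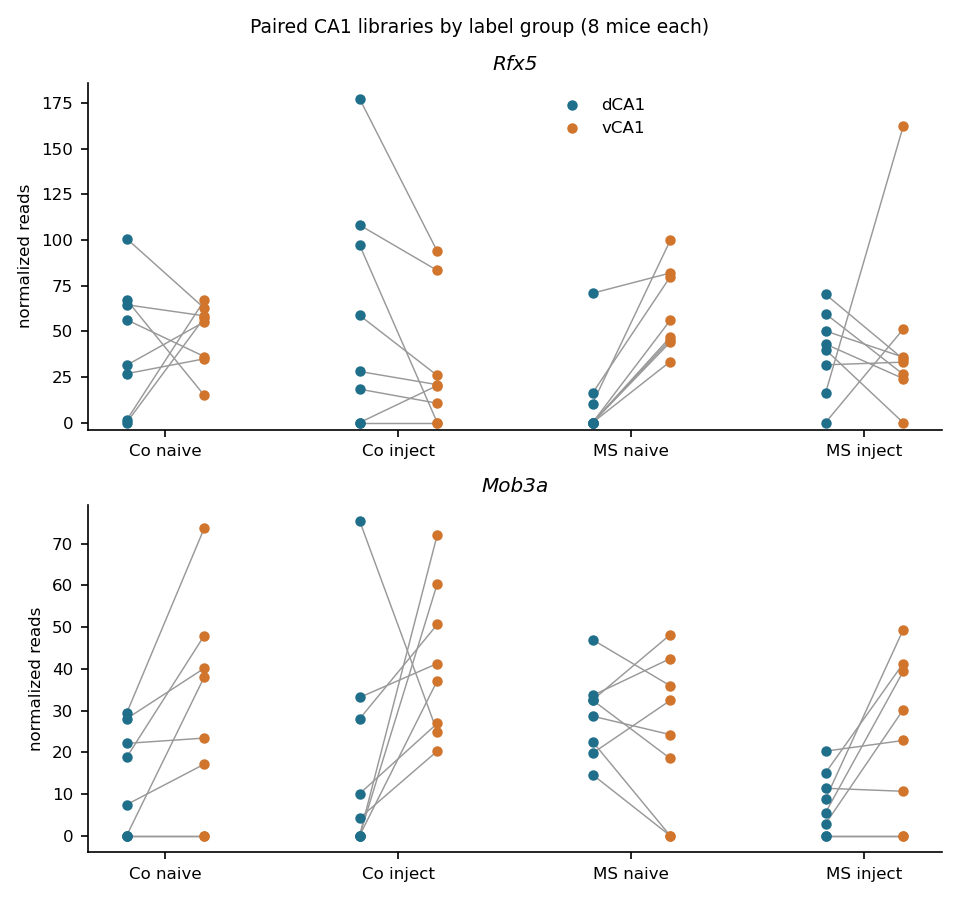
Normalized reads of Rfx5 (top) and Mob3a (bottom) in dCA1 and vCA1 by label group, with a line for each of the 8 mice of a group. In MS naive 5 of 8 dorsal Rfx5 values are 0 and all 8 ventral ones are at 33.4 or above.

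In MS inject and in Co naive mice 0 of 69 assays (0%) passed, with 3 (4.35%) and 2 (2.9%) at an unadjusted p under 0.05. The smallest p in MS inject mice was that of *Pitpnm2*, at 1.20 (SE 0.417, adjusted p = 0.520). Its ventral library was the lower in 7 of 8 mice. Without the library of mouse 99, which had 1 read of this gene, the difference over the remaining 7 mice was 0.80 (adjusted p = 0.821), and without mouse 93 it was 1.53 and passed (adjusted p = 0.0651). With the range as a covariate it was 1.03 and did not pass. In Co naive mice the smallest p was that of *Ikbkb*, a kinase that activates NF-kB, at -1.58 (SE 0.502, adjusted p = 0.260). Its dorsal values ran from 0 to 128 with a median of 56.1 and its ventral values from 82.8 to 145 with a median of 109, and the ventral library was the higher in 7 of 8 mice. With each mouse left out in turn, the difference of *Ikbkb* ran from -1.83 to -0.80 (adjusted p from 0.114 to 0.919).

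Whether the dorsal to ventral difference itself differs between the labels was tested in the same fit. Between MS and Co mice 0 of 69 assays (0%) passed, 3 (4.35%) at an unadjusted p under 0.05, and the smallest p was that of *AW209491*, at -0.79 (SE 0.316, adjusted p = 0.428). Its ventral library was the higher in 7 of 8 MS naive and 6 of 8 MS inject mice, against 5 of 8 Co naive and 3 of 8 Co inject mice. Between inject and naive mice 0 passed (0%), with 4 (5.8%) at an unadjusted p under 0.05. For status by injection 0 passed at either level (0%), and *Gart*, an enzyme of purine synthesis, had the smallest p (1.02, SE 0.512, adjusted p = 0.929). The median SE of these contrasts was 0.340 for status and for injection, and 0.679 for their interaction.

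Next, MS was compared with Co and inject with naive within each end. In dCA1, 0 of 69 assays (0%) passed for status, for injection or for their interaction, with 3 (4.35%), 0 (0%) and 0 (0%) at an unadjusted p under 0.05. The smallest p for status was that of *Zfp641*, a zinc finger gene, at 1.85 (SE 0.771, adjusted p = 0.749). Its median was 19.2 in Co naive and 34.4 in Co inject mice, with 2 and 3 of 8 libraries at 0, and 36.1 in MS naive and 45.7 in MS inject mice, with 1 and 0 at 0. The ranges of the groups overlap. For injection the smallest p was that of *Rbm4*, a splicing factor, at -0.82 (SE 0.429, adjusted p = 0.895), with medians of 116 in Co naive, 62.7 in Co inject, 98.2 in MS naive and 74.8 in MS inject mice. For status by injection it was that of *Gart*, at 0.63 (SE 0.345, adjusted p = 0.984).

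In vCA1 *Tnf* was at 0 in all 32 libraries, which left 68 assays to test. None passed for status (0%), injection (0%) or interaction (0%), with 3 (4.41%), 4 (5.88%) and 1 (1.47%) at an unadjusted p under 0.05. *Cdkn1a*, the p21 inhibitor of the cell cycle, had the smallest p for status, at -1.31 (SE 0.529, adjusted p = 0.855). Its medians were 42.7 and 32.8 in Co naive and Co inject and 14.1 and 31.0 in MS naive and MS inject mice. *Lrrc25*, a gene of myeloid cells, had the smallest p for injection, at 1.39 (SE 0.462, adjusted p = 0.360). It was at 0 in 7 of 8 Co naive and 7 of 8 MS naive libraries, and in 2 of 8 Co inject and 5 of 8 MS inject libraries, with a highest count of 17 reads. It passed when mouse 103, 227, 249 or 267 was left out. *Peli1*, a ubiquitin ligase of innate immune signaling, had the smallest p for the interaction, at -0.83 (SE 0.401, adjusted p = 0.927).

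**Figure D5:**
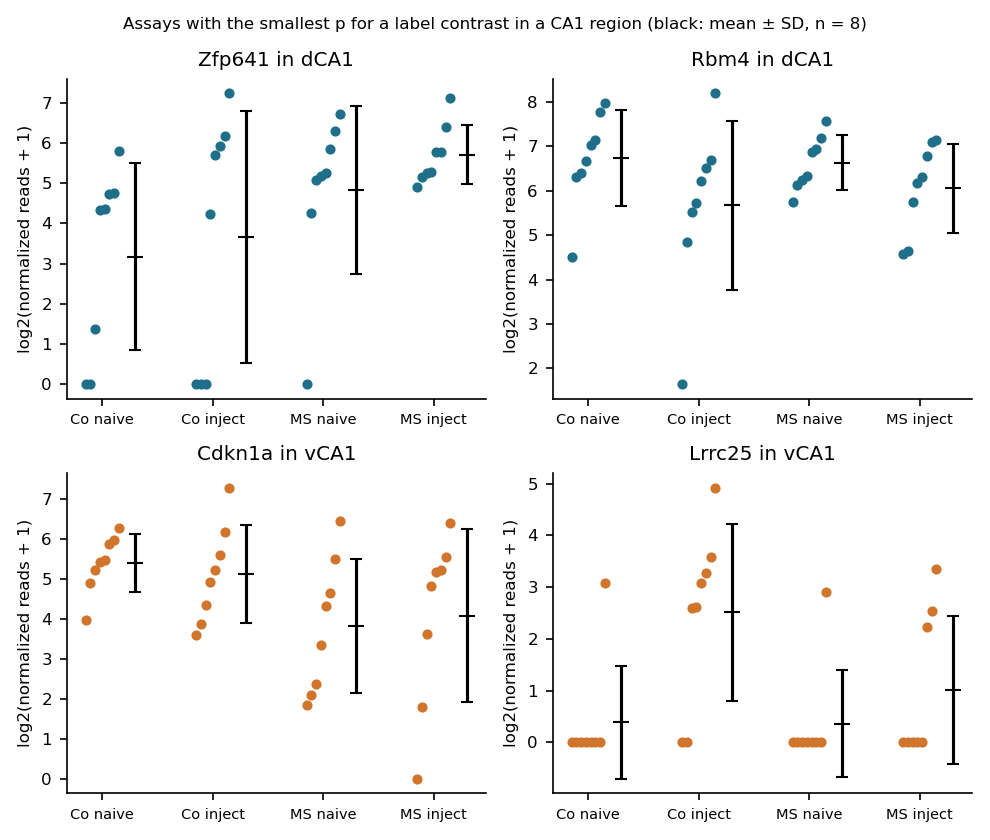
log2(normalized reads + 1) by label group for Zfp641 and Rbm4 in dCA1 and Cdkn1a and Lrrc25 in vCA1, the assays with the smallest p for status and for injection. Points are the 8 mice of a group in order of value and bars the mean and SD, and the groups overlap in all 4 panels.

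Over the mean of the dorsal and the ventral library of a mouse, 0 of 69 assays passed for status (0%) and 0 for injection (0%), with 0 (0%) and 2 (2.9%) at an unadjusted p under 0.05. *Fan1*, a DNA repair nuclease, had the smallest p for status (0.56, SE 0.331, adjusted p = 0.940) and *Lrrc25* for injection (0.93, SE 0.329, adjusted p = 0.503), the latter passing without mouse 103. Without the vCA1 library of mouse 99, *Dpm2*, a subunit of the dolichol-phosphate mannose synthase, passed for injection with a lower level in inject mice. For 54 of 69 assays the 95% interval of the status difference lay within 1 on the log2 scale, and for 41 within 0.5.

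*Nr3c1* and the genes that the study's univariate paragraph names for dCA1 or vCA1 were followed by rule. *Nr3c1* had medians of 361 in Co naive, 339 in Co inject, 285 in MS naive and 374 in MS inject mice in dCA1, and of 308, 229, 261 and 291 in vCA1. Its status difference was -0.13 (SE 0.166, adjusted p = 0.899) in dCA1 and 0.02 (SE 0.188, adjusted p = 0.987) in vCA1, and its injection difference 0.06 (SE 0.166) and -0.20 (SE 0.188). *Fth1* differed by 0.18 (SE 0.242) for status and -0.06 (SE 0.242) for injection in dCA1. *Mrpl54*, a protein of the mitochondrial ribosome, had 0.28 (SE 0.171) and -0.21 (SE 0.171), *Abcf1*, a translation factor, 0.14 and 0.28 (SE 0.381), and *Psmb3*, a proteasome subunit, 0.23 and -0.13 (SE 0.164). *Ccndbp1*, a cyclin D binding protein, had an interaction of 0.21 (SE 0.402) in dCA1, and its injection difference in vCA1 was 0.40 (SE 0.186, adjusted p = 0.823). *Abhd5* in vCA1 had a status difference of 0.04 and an injection difference of -0.41 (SE 0.618). None of these passed, and since the label groups are not paired with the study's conditions, none of them addresses a condition by name.

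Dorsal and ventral libraries were also at hand for CA3, which feeds CA1, and for the dentate gyrus (DG), the entry to the hippocampal circuit. The dorsal minus ventral difference of CA1 was tested against that of CA3 in the same 32 mice, and 6 of 69 assays (8.7%) passed. In CA3 alone 14 of 69 assays (20.3%) passed between dorsal and ventral libraries, against 0 in CA1. *Tmem176a* had -0.68 in CA1 and 0.99 in CA3, a difference between the fields of -1.67 (SE 0.375, adjusted p = 0.0076). *Nr3c1* had 0.40 in CA1 and -0.25 in CA3, a difference of 0.65 (SE 0.202, adjusted p = 0.072). *Stambpl1* (-0.44), *Ctnnb1* (-0.44), *Rps12* (-0.35) and *Commd1*, which takes part in copper handling and NF-kB turnover (-0.33), had the lower value in CA1, with adjusted p between 0.072 and 0.089. In CA3 their own differences were 0.22, 0.14, 0.32 and 0.25, of which *Rps12* and *Commd1* passed there, as did *Tmem176a*. In CA1 alone the 95% interval of *Commd1* and *Rps12* included 0. Without mouse 99, *Tmem176a* (-1.66, adjusted p = 0.0130) was the 1 assay that passed, and *Nr3c1* was at 0.57 (adjusted p = 0.105). *Tmem176a* alone passed at an adjusted p of 0.05 in all 32 mice, and the *Ociad2* range, with which *Tmem176a* goes in every CA1 library, was not entered in this comparison.

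Against DG, in 31 mice, 0 of 69 assays (0%) passed, with 7 (10.1%) at an unadjusted p under 0.05. *Fth1* had the smallest p, with 0.63 in CA1 of all 32 mice, -0.27 in DG and a difference of 0.91 (SE 0.265, adjusted p = 0.129), and it passed without mouse 99 (0.99, adjusted p = 0.0502). With the totals rescaled, 6 assays passed against DG.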

How the data were processed

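RNA of 64 CA1 micropunches (32 mice, dCA1 and vCA1) was measured by TruSeq Targeted RNA sequencing on a MiSeq. Per the labels and the methods, the authors checked reads with FastQC, filtered them with PRINSEQ, aligned them with BWA to the assay manifest and scaled them with DESeq2; the labels name the build mm10. The deposited values are a signal, reads per assay divided by a size factor per library. In each library 100% of them are whole multiples of a step (within 1e-04 reads), which gave the reads back; 0 columns of the table were left unused. Pearson's r between libraries of a group was 0.777 to 0.978 over 224 pairs, and 0 pairs were identical.

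Values were transformed to log2(value + 1). limma 3.58.1 (R 4.3.3) was fitted to within-mouse differences, and to each region, with the mean of each label group, so that all groups share 1 estimate of the spread; contrasts weight the groups equally. p-values are two-sided and Benjamini-Hochberg adjusted over all assays, with a threshold of 0.1, as the study used. Confidence intervals are at 95%. The mouse, given by the labels, is the replicate block. Deviations of the libraries of a mouse from their group means had a median r of -0.06 over the 32 mice (-0.48 to 0.46, over 0.1 in 10), so the pairing comes from the animal and not from the values. Labels give 1 library per mouse and region, and library preparation plates held regions together per the methods, so that plate and region could not be separated here.

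Named genes are those past the threshold, otherwise the smallest p of a contrast, *Nr3c1*, the genes the study names for CA1 and up to 3 members of each list; *Ociad2*, *Tmem176a*, *Cd47*, *Nedd4l*, *Fkbp5* and *Dpm2* were added or described further after their values were seen. The comparisons, gene lists and alternatives were chosen with earlier results of these data known. Positions are from RefSeq (GRCm38.p6), in which 67 of the 69 assays matched by symbol and 2 (*Atp5f1*, *Hist1h2al*) by an older symbol, the match of the second being uncertain. Fits were tested on simulated data. The result of 1 assay is not reported here by itself, though it stays in all fits and counts. Figures were drawn with Python 3.11.15 and matplotlib 3.10.9. Alternatives were pseudocounts of 0.1 and 10, a mean value of at least 10, rescaled totals, 5 principal components of the residuals (in place of the study's surrogate variables), an adjusted p of 0.05, a depth covariate, no pairing, no library of mouse 99, each mouse left out, limma-voom on the recovered reads and the *Ociad2* range.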

Additional observations from a re-analysis of the deposited data

Results flagged for a closer look

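In groups of 8 libraries, 168 combinations of region, label group and quantity (reads and 20 named genes) were examined for a library far from the other 7, and 22 had one; about 5% are flagged by chance alone. For reads, the dCA1 library of mouse 97 (MS inject) had 226629 against 151463 for the next highest, and the vCA1 library of mouse 267 (Co inject) 166752 against 127981.

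The vCA1 library of mouse 99 stood apart from the other 7 of MS inject in 3 genes. *AW209491* was at 538 against 267 for the next highest, *Nr3c1* at 92.7 against 206 for the next lowest, and *Rfx5* at 0.00 against 24.1, which is under the 27.8 that 3 reads of that library amount to.

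Other low values in dCA1 were *AW209491* at 48.0 (mouse 255, Co naive, next 160), *Ikbkb* at 0 (mouse 251, Co naive, next 23.3), *Stambpl1* at 717 (mouse 239, Co naive, next 901), *Nr3c1* at 228 (mouse 267, Co inject, next 314), *Peli1* at 101 (mouse 237, Co inject, next 277), *Zfp641* at 0 (mouse 101, MS naive, next 18.1), *Cdkn1a* at 0 (mouse 95, MS inject, next 28.1) and *Rfx5* at 0 (mouse 81, MS inject, next 16.1). In vCA1 they were *Commd1* at 318 (mouse 229, Co naive, next 604), *Rfx5* at 14.9 (mouse 227, Co naive, next 34.9) and *Nr3c1* at 168 (mouse 89, MS naive, next 240).

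Sparse genes gave high values in single libraries. *Lrrc25* was at 4.88 (mouse 239, Co naive), 7.94 (mouse 267, Co inject) and 17.1 (mouse 103, MS naive) in dCA1, and at 7.46 (mouse 227, Co naive) and 6.48 (mouse 103, MS naive) in vCA1, while the next highest library of these groups was at 0.72 in dCA1 of Co inject and at 0 in the others. *Fan1* was at 3.83 in vCA1 of mouse 267 (Co inject), the next highest being at 1.03.

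The dorsal minus ventral difference of 6 genes differed between CA1 and CA3 by the test of that difference, on the log2 scale by -1.67 for *Tmem176a*, 0.65 for *Nr3c1*, -0.44 for *Stambpl1*, -0.44 for *Ctnnb1*, -0.35 for *Rps12* and -0.33 for *Commd1*. Without mouse 99, 1 of the 6 (*Tmem176a*) passed.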

How the results depend on the processing

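Over 18 comparisons, 144 of 178 counts of assays under another setting, single mice left out apart, stayed within 1.5 times the count given. Many of the counts given are 0. None of the 32 differences of single named genes that were followed changed its sign in 1077 alternative values. These 32 had been chosen in the same data for a low p, so that a kept sign says little. Among all 69 assays signs did change, with 41 below 0 between dorsal and ventral and 53 with rescaled totals. Dorsal minus ventral over all mice gave 4 assays with a pseudocount of 10, 16 with rescaled totals, 15 with 5 principal components, 3 with the depth covariate (*Fth1*, *Nr3c1*, *Pitpnm2*), 3 without the replicate block (*Fth1*, *Nr3c1*, *Tmem176a*), 1 by limma-voom (*Fth1*) and 0 with the *Ociad2* range or without the vCA1 library of mouse 99. In Co inject mice the 1 assay became 0 at an adjusted p of 0.05, with a pseudocount of 0.1, with rescaled totals, with the depth covariate, with the *Ociad2* range, without the replicate block, by limma-voom and without the vCA1 library of mouse 99. Against CA3 the 6 assays became 1 (*Tmem176a*) at an adjusted p of 0.05 and, chosen after seeing the data, without mouse 99. Against DG the 0 became 6 with rescaled totals and 1 (*Fth1*) without mouse 99. In Co naive mice rescaled totals gave 1 (*Ikbkb*). For inject minus naive over the mean of both ends, 1 assay (*Dpm2*) passed without the vCA1 library of mouse 99.

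The 5 principal components gave more calls, also in comparisons with none: 2 in MS inject, 4 in MS naive, 3 in Co inject and 2 in Co naive mice for dorsal minus ventral, 3 for its difference between MS and Co and 1 between inject and naive, 1 each for status, injection and interaction in dCA1, 3 for status and 2 for injection in vCA1, 1 for injection over both ends, 17 against CA3 and 9 against DG; the cause was not tested.

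With each mouse left out in turn, the counts ran from 0 to 7 over all mice, 0 to 1 in MS inject, 1 to 2 in MS naive, 0 to 2 in Co inject, 0 to 1 for the difference between inject and naive mice, 0 to 1 for injection in vCA1 and 0 to 1 for injection over both ends, and stayed at 0 in the other 9 comparisons for which it was run. *Mob3a* in Co inject mice had adjusted p from 0.0050 to 0.450. Over all mice *Pitpnm2* and *Tmem176a* passed in 7 of 32 such fits each. edgeR and DESeq2 on recovered reads, planned as alternatives, were not run, since the values were kept as the normalized signal that was deposited; limma-voom on the recovered reads, chosen after seeing the data, took their place. Depth limits the sparse genes (*Rfx5*, *Mob3a*, *Slc7a7*, *Lrrc25*), where 3 reads amount to a median of 4.10 normalized reads in dCA1 and 3.27 in vCA1. The highest such values were 7.50 in dCA1 and, in the vCA1 library of mouse 99, 27.8.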

Other observations

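The spread of some genes among mice is given here without a test. In dCA1 the SD of log2(normalized reads + 1) over 32 libraries was 0.99 for *Tmem176a* and 0.57 for *Pitpnm2*, against 0.70 and 1.10 in vCA1, where the library of mouse 99 had 1 read of *Pitpnm2*. In the 9 mice with both libraries in the upper *Ociad2* range, *Vhl*, the ubiquitin ligase subunit that marks HIF factors for degradation, was the higher in vCA1 in 7, with a median difference of -0.96. Over all 32 mice its difference was -0.20, and -0.47 with the range as a covariate (adjusted p = 0.210). *Vhl* was singled out after its values had been seen, and other assays were more one-sided by count in these 9 mice. *Cct7*, *Nedd4* and *Slc6a15* were the higher in vCA1 in 8, and *Hist1h2al* and *Rps12* the higher in dCA1 in 8.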
